A study of Arabidopsis thaliana with 6 samples.

Results

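Expansins and xyloglucan endotransglucosylase/hydrolases (XTHs) are the 2 families of secreted proteins examined here, both of which act on the growing plant cell wall. Their genes were taken by locus: 23 expansin genes (18 alpha-expansins or EXPA, 2 beta-expansins or EXPB and 3 expansin-like A genes or EXLA) and 26 XTH genes, together 49 of the 20310 genes that had a probe set of their own. Each of the 49 genes had exactly 1 probe set, and no probe set that names several genes included any of them. The RNA was from whole Arabidopsis thaliana seedlings of the Col-0 ecotype, grown on Murashige & Skoog solid medium under 16 h of light and 8 h of darkness. The heat group held 3 samples that received 37 °C for 30 min under light. The control group held 3 samples kept at 23 °C, the temperature of growth, also under light and without heat. Each sample was hybridised to 1 Affymetrix array.

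Expansins loosen the wall without cutting it, by freeing the contacts between cellulose and the matrix polysaccharides when the wall is acidified. XTHs cut xyloglucan, the main hemicellulose of this wall, and join the cut end to another xyloglucan chain, and some members hydrolyse it instead. Both families are known as targets of growth hormones, light and mechanical stimuli, and XTH22 was first described as TCH4, a gene induced by touch.

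The values are log2 levels from RMA, which normalizes the probes of all arrays to a common distribution, so each level is relative to the other probe sets of its array. Array medians lay between 4.39 and 4.53. Precision is limited by the number of arrays. Labelled ages were 13 to 15 days for the heat samples and 10 to 12 days for the control samples, different on each array, while the series text states 10 days for all seedlings. The labels do not say whether the samples of a group were grown separately, so p-values measure the spread between these samples, which may be technical. In seedling tissue, fewer cells of a type and less RNA per cell cannot be told apart.

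The heat arrays were more alike than the control arrays: over all probe sets, the SD of the difference between 2 arrays was 0.19 to 0.28 within the heat group and 0.36 to 0.55 within the control group. The 10 touch and wound response genes listed for comparison had median log2 levels of 5.04, 5.18 and 4.82 in heat arrays 1, 2 and 3, against 5.74, 9.41 and 10.24 in control arrays 1, 2 and 3. All 10 were at least 2-fold higher in control array 3 than in control array 1, where 3.35% of all probe sets were. This list was chosen with earlier results of these data known. All 4 heat shock genes listed rose with heat, where limma called 7.82% of all probe sets higher. Of the 4, 3 were also at least 2-fold higher in control array 3 than in control array 1, with HSP101 at 8.22 against 4.82. Markers of green shoot tissue were high on every array, with medians of 13.19 to 13.29 in heat arrays and 13.37 to 13.56 in control arrays over the 4 of 6 with a probe set of their own. All 5 root hair markers had means below the array medians, with list medians of 3.59 to 3.69 in heat arrays and 3.39 to 3.55 in control arrays. Of the 5 root tissue markers with a probe set of their own 1, SCR, fell by 1.76, where limma called 11.5% of all probe sets lower. The others differed by -0.63 (WOL), -0.09 (CASP1), 0.16 (HAK5) and 0.32 (NRT2.1). At an unadjusted p under 0.05, 2 root tissue markers were lower and 1 was higher, beside 18.1% and 14.1% of all probe sets. By limma 0 of the green shoot, root hair, guard cell (3) and xylem (4) markers passed, and at an unadjusted p under 0.05 there were 1 lower green shoot, 1 lower guard cell and 1 higher xylem marker.

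The comparison of heat with control addressed the heat stress response under light. A gene was called where p, adjusted over the 22746 probe sets tested, was under 0.05. Among expansins 6 of 23 fell and 0 rose, against a background of 11.5% of probe sets that fell and 7.82% that rose (19.3% in either direction). Among XTH genes 6 of 26 fell and 0 rose. With a 2-fold minimum, 4 genes in each family fell, against 3.98% of probe sets, and 0 rose in either family, against 2.8%. At an unadjusted p under 0.05, 7 expansins and 8 XTH genes were lower (18.1% of probe sets), and 1 expansin (EXPA2) and 0 XTH genes were higher (14.1%). The median change was -0.33 (log2) over the expansins and -0.42 over the XTH genes, beside 0.02 over all probe sets. The difference was negative for 16 expansins and 21 XTH genes, where 46.3% of probe sets had a negative one.

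The counts moved with single arrays and with the scaling. Without heat array 1 or 3, 3 expansins were lower, beside 1473 and 1536 of all probe sets. Without control array 3 there were 9, beside 2807 of all probe sets. Leaving out heat array 1, 2 or 3 gave 3 lower XTH genes each time, beside 1473, 1990 and 1536 of all probe sets. Without control array 3, 1 expansin (EXLA2) and 1 XTH gene (XTH23) were called higher, beside 1464 of all probe sets. Over all probe sets limma called 2614 lower and 1778 higher. Centring each array on its median gave 2126 lower and 3054 higher, and scaling to the Bacillus control RNAs gave 9667 lower and 643 higher, with 15 lower expansins and 19 lower XTH genes.

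**Figure D1:**
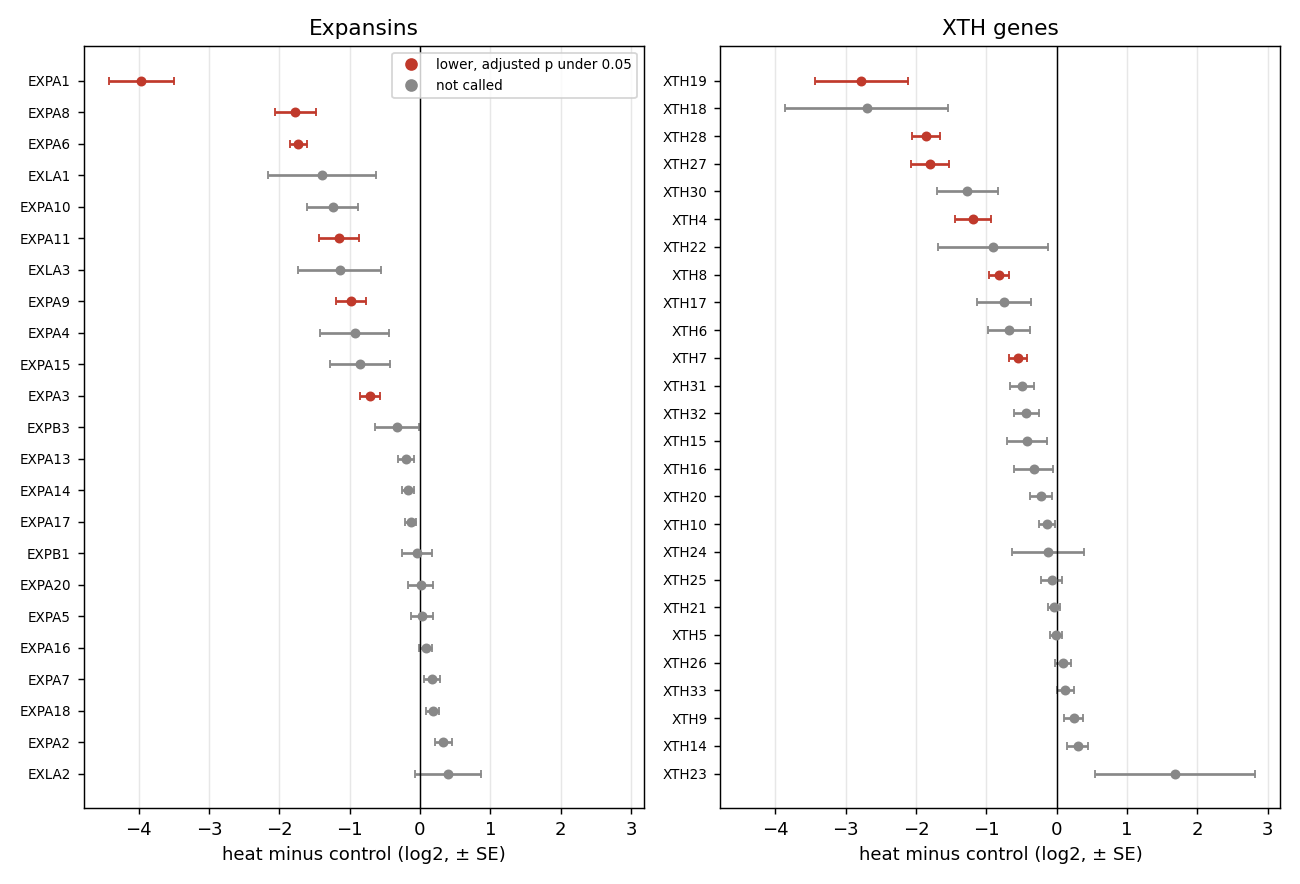
Change of each expansin (left) and XTH gene (right), heat minus control on the log2 scale, with bars of 1 limma standard error (3 heat and 3 control arrays). The 12 red genes fell at an adjusted p under 0.05, from EXPA1 at -3.96 to XTH7 at -0.55, and the widest bars belong to XTH18 and XTH23, whose control arrays spanned 5.07 and 4.47.

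All 12 called members lay lower in every heat array than in any control array. Over both families, 18 of 49 members had all heat arrays below all control arrays, where 20.0% of probe sets did, 1 had them all above, where 18.8% did, and in 30 the groups overlapped, as in 61.2% of probe sets. Under each alternative normalization, scaling or covariate tried, and without any single array, the 12 changes remained negative. They had been picked as lower on these same arrays. Without overlap between the groups, leaving out 1 array could not turn a sign. The calls were less steady. EXPA1, EXPA6, EXPA8, XTH27, XTH28 and XTH8 were called whichever array was left out, while the other 6 lost their call in at least 1 of these fits. The share of all called probe sets that kept their call in every such fit was not computed. Without moderation of the variances 3 were called (EXPA1, EXPA6 and XTH28), beside 1178 lower of all probe sets. With the labelled age as a covariate only EXPA6 was called (adjusted p = 0.039), beside 227 lower of all probe sets. Labelled age rises with replicate number in each group and does not overlap between groups, so that fit can hardly separate age from heat.

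EXPA1 (AT1G69530), an alpha-expansin of expanding leaves and guard cells, had the largest fall of any member. Its log2 level was 5.62, 5.76 and 5.61 in heat arrays 1, 2 and 3, against 10.64, 9.63 and 8.60 in control arrays 1, 2 and 3. The heat arrays lay within 0.15 of each other, and the control arrays spanned 2.04. EXPA1 fell by 3.96 ± 0.46 (log2, ± SE; adjusted p = 0.00187), a 15.5-fold lower level. With the age covariate its change was -2.42 and was not called (adjusted p = 0.193).

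EXPA6 (AT2G28950) and EXPA8 (AT2G40610), both alpha-expansins, fell by similar amounts. EXPA6 had levels of 6.55, 6.76 and 6.54 in heat arrays, against 8.27, 8.55 and 8.24 in control arrays, and fell by 1.73 ± 0.12 (adjusted p = 0.000166). Its control arrays spanned 0.31, and no array of either group came close to the other group. EXPA8 had 6.39, 6.94 and 6.76 in heat arrays, against 8.80, 8.77 and 7.82 in control arrays, and fell by 1.77 ± 0.29 (adjusted p = 0.00712).

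The other 3 alpha-expansins that fell had smaller changes. EXPA11 (AT1G20190) lay at 5.50, 5.76 and 5.77 in heat arrays, against 7.43, 6.81 and 6.25 in control arrays, and fell by 1.15 ± 0.28 (adjusted p = 0.0329). EXPA9 (AT5G02260) fell by 0.98 ± 0.21 (adjusted p = 0.0218) and EXPA3 (AT2G37640) fell by 0.71 ± 0.14 (adjusted p = 0.0137). The heat level of EXPA9, 3.57 ± 0.06 (SD, n = 3), lay below the array medians. Each of these 3 calls depended on single arrays and was lost as follows: EXPA11 without any heat array or control array 2 (adjusted p up to 0.116), EXPA9 without any heat array (up to 0.0804) and EXPA3 without heat array 1 or 3 (up to 0.0611). With the age covariate the changes of EXPA11, EXPA9 and EXPA3 were -0.46, -0.36 and -0.42, none of them called.

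EXPA10, EXPA4 and EXPA15 had large mean differences that did not pass, and in each the control arrays disagreed. EXPA10 (AT1G26770), which promotes leaf growth, had 4.86, 5.08 and 5.03 in heat arrays, against 6.93, 6.38 and 5.38 in control arrays (change -1.24 ± 0.36, adjusted p = 0.0577). EXPA4 (AT2G39700) had 5.87, 6.57 and 6.13 in heat arrays, against 7.99, 7.36 and 6.0 in control arrays (change -0.93 ± 0.49, adjusted p = 0.247). EXPA15 (AT2G03090) had 6.11, 6.68 and 6.03 in heat arrays, against 7.75, 7.53 and 6.11 in control arrays (change -0.85 ± 0.43, adjusted p = 0.233). All heat arrays lay below all control arrays only for EXPA10 of these 3, while control array 3 lay inside the heat range for EXPA4 and EXPA15. Without control array 3 the 3 genes were called, with changes of -1.66 for EXPA10, -1.49 for EXPA4 and -1.36 for EXPA15 (adjusted p = 0.00154, 0.0106 and 0.00666). In that fit 2807 of all probe sets were lower. Leaving out any other single array gave no call for EXPA10, EXPA4 or EXPA15 (adjusted p up to 0.169, 0.492 and 0.459). Scaling to the Bacillus control RNAs gave a call for all 3, in a fit that called 9667 of the 22746 probe sets lower. On all arrays, EXPA10 alone of the 3 was called by limma without the dimmest 25% of probe sets, with a variance trend and with array weights (adjusted p = 0.0419, 0.0372 and 0.0184).

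EXPA5 (AT3G29030), known as a brassinosteroid-responsive expansin of leaves, had 6.65, 7.17 and 6.84 in heat arrays, against 6.96, 6.95 and 6.65 in control arrays. Its groups overlapped, with a change of 0.03 ± 0.16 (adjusted p = 0.921). The beta-expansin EXPB3 (AT4G28250) had 6.35, 7.04 and 6.55 in heat arrays, against 7.38, 7.23 and 6.32 in control arrays (change -0.33 ± 0.31, adjusted p = 0.524). EXPA13 differed by -0.20 (adjusted p = 0.273). In none of these 3 genes was the difference called.

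The expansin-like A genes encode proteins with the expansin fold whose wall-loosening activity has not been shown. EXLA1 (AT3G45970) had 7.07, 7.39 and 7.12 in heat arrays, against 6.98, 8.40 and 10.39 in control arrays. EXLA3 (AT3G45960), its neighbour on chromosome 3, had 4.18, 4.18 and 3.98 in heat arrays, against 3.91, 5.31 and 6.54 in control arrays. For both genes the heat level was near that of control array 1 and far below control array 3, so neither passed (changes -1.39 and -1.14, adjusted p = 0.272 and 0.244). EXLA2 (AT4G38400) had 5.82, 6.02 and 5.64 in heat arrays, against 4.84, 4.83 and 6.60 in control arrays (change 0.40 ± 0.47, adjusted p = 0.613). The heat arrays of EXLA2 lay between control array 3 and the other control arrays. Without control array 1, EXLA1 and EXLA3 were called lower (changes -2.20 and -1.81, adjusted p = 0.0391 and 0.0161). Without control array 3, EXLA2 was called higher (change 0.99, adjusted p = 0.00361).

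Several expansins known from roots gave low signals. EXPA7 and EXPA18, both of which act in root hairs, had means of 3.87 and 4.63 in heat arrays, against 3.70 and 4.45 in control arrays, and EXPA14 and EXPA17, known from lateral roots, had means of 3.79 and 3.96, against 3.96 and 4.08. In all, 8 of 23 expansins had a mean over the 6 arrays below 4.39, the lowest array median, and 1 of the 8, EXPA9, was called. The others were EXPA2, EXPA7, EXPA14, EXPA16, EXPA17, EXPA20 and EXPB1. Changes of these 8 ran from -0.98 to 0.33. EXPA2, known from germinating seeds, was the member with all heat arrays above all control arrays, at 3.93, 4.24 and 4.25 in heat arrays, against 3.65, 3.87 and 3.90 in control arrays (change 0.33, adjusted p = 0.111). For the 7 that were not called, this does not show that there was no change.

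**Figure D2:**
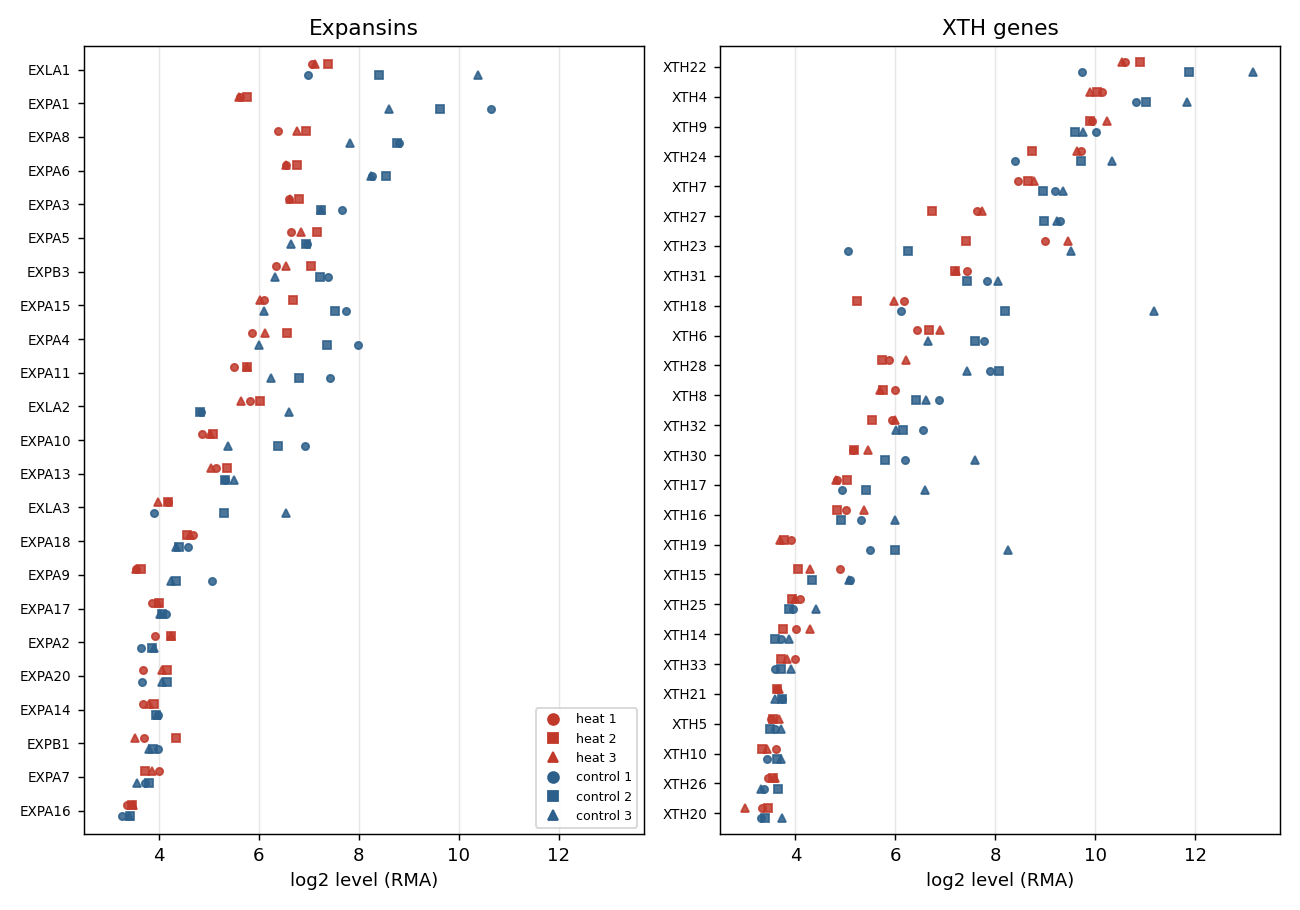
Log2 RMA level of the 23 expansins (left) and 26 XTH genes (right) on every array. Red marks are heat arrays and blue marks are control arrays, with circles, squares and triangles for replicates 1, 2 and 3, and genes are sorted by their mean over the 6 arrays. The red marks of a gene usually lie close together, while the blue marks of EXPA1, EXLA1, XTH18, XTH22 and XTH23 spread over 2.04 to 5.07.

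Among XTH genes, 3 of 7 in group I, 1 of 13 in group II, 2 of 4 in group IIIB and 0 of 2 in group IIIA fell, beside 11.5% of all probe sets. These are the sequence groups of the family, and the members of group IIIA are the ones known or predicted to hydrolyse xyloglucan rather than to rejoin it.

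In group IIIB, XTH28 and XTH27 fell by similar amounts. XTH28 (AT1G14720), which acts in the growth of stamen filaments, had 5.88, 5.73 and 6.21 in heat arrays, against 7.89, 8.08 and 7.44 in control arrays, and fell by 1.86 ± 0.20 (adjusted p = 0.00115). XTH27 (AT2G01850), needed for tertiary veins of leaves, had 7.63, 6.73 and 7.74 in heat arrays, against 9.29, 8.98 and 9.24 in control arrays, and fell by 1.80 ± 0.27 (adjusted p = 0.00496). Heat array 2 was the lowest of the heat arrays for both. XTH30 (AT1G32170) lay at 5.15, 5.17 and 5.45 in heat arrays, against 6.19, 5.80 and 7.59 in control arrays, without overlap, but did not pass (change -1.27 ± 0.43, adjusted p = 0.0924). Without control array 3 it was called at a smaller change (-0.74, adjusted p = 0.0223). XTH33, whose protein is anchored in the plasma membrane, was below the array medians in both groups.

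In group I the median range of the control arrays was 0.41, against 0.26 over all probe sets and 1.07 in group II. It was at least 2-fold for 2 of 7 members (XTH4 and XTH6), where it was for 4.76% of probe sets. XTH4 (AT2G06850), known from stems and wood-forming tissue, had 10.14, 10.03 and 9.90 in heat arrays, against 10.82, 11.01 and 11.83 in control arrays, and fell by 1.19 ± 0.26 (adjusted p = 0.0205). XTH8 (AT1G11545) had 5.99, 5.76 and 5.70 in heat arrays, against 6.87, 6.41 and 6.62 in control arrays, and fell by 0.82 ± 0.14 (adjusted p = 0.00938). XTH7 (AT4G37800) had the smallest fall that passed, by 0.55 ± 0.13 (adjusted p = 0.0335). Centring each array on its median gave XTH7 a change of -0.44 and no call (adjusted p = 0.0579), and leaving out any array but control array 2 ended its call (adjusted p up to 0.112). The call of XTH4 was lost without any heat array (up to 0.0804), and its change was -1.77 with the age covariate. XTH9 (AT4G03210), like XTH4 known from stems, had 9.94, 9.89 and 10.24 in heat arrays, against 10.01, 9.59 and 9.75 in control arrays. Its groups overlapped (change 0.24 ± 0.14, adjusted p = 0.311), and the change was -0.27 after scaling to the Bacillus control RNAs. XTH6 (AT5G65730) had 6.43, 6.67 and 6.89 in heat arrays, against 7.77, 7.59 and 6.66 in control arrays (change -0.68 ± 0.30, adjusted p = 0.171), and it was called without control array 3 (-1.02, adjusted p = 0.00633).

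In group IIIA, XTH31 (AT3G44990), a hydrolase of root cell walls, had 7.43, 7.20 and 7.21 in heat arrays, against 7.84, 7.43 and 8.05 in control arrays (change -0.49 ± 0.17, adjusted p = 0.0907). It was called without control array 2 (adjusted p = 0.0237). XTH32 (AT2G36870) had 5.93, 5.53 and 5.99 in heat arrays, against 6.56, 6.16 and 6.01 in control arrays (change -0.43 ± 0.18, adjusted p = 0.161). In both genes all heat arrays lay below all control arrays, with a gap of under 0.05 between the highest heat and the lowest control array.

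Group II held the members with the widest spread between control arrays. XTH22 (AT5G57560), the touch-induced TCH4, had 10.60, 10.90 and 10.53 in heat arrays, against 9.74, 11.88 and 13.15 in control arrays. The heat arrays lay inside the control range, and the change was -0.91 ± 0.78 (adjusted p = 0.476). Without control array 1 the change was -1.84 and was called (adjusted p = 0.0192), and without control array 3 it was -0.13 (adjusted p = 0.911). XTH23 (AT4G25810) had 9.00, 7.42 and 9.46 in heat arrays, against 5.05, 6.26 and 9.52 in control arrays. Its mean was 1.68 ± 1.14 higher after heat without passing (adjusted p = 0.366), and without control array 3 it was 2.97 higher and called (adjusted p = 0.0227). With the age covariate the change of XTH23 was -2.01. For both genes the sign or the size of the difference depended on which control arrays were used.

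XTH24, XTH18 and XTH19 are consecutive genes on chromosome 4, with no protein-coding gene between them. XTH19 (AT4G30290), which takes part in joining cut stem tissue, had 3.92, 3.78 and 3.70 in heat arrays, against 5.50, 5.99 and 8.25 in control arrays, and fell by 2.78 ± 0.66 (adjusted p = 0.0299), the largest fall among XTH genes that passed. The call was lost without any heat array or control array 2 (adjusted p up to 0.0996), and the change was -1.95 without control array 3 and -4.68 with the age covariate. XTH18 (AT4G30280), known from the root elongation zone, had 6.17, 5.24 and 5.97 in heat arrays, against 6.11, 8.19 and 11.18 in control arrays. Its control arrays spanned 5.07, the widest range of any member, and the change of -2.70 ± 1.16 did not pass (adjusted p = 0.165), though it did without control array 1 (-3.89, adjusted p = 0.0257). XTH24 (AT4G30270), known as the meristem gene MERI5B, had 9.71, 8.73 and 9.63 in heat arrays, against 8.39, 9.71 and 10.34 in control arrays (change -0.12 ± 0.51, adjusted p = 0.907). In all 3 neighbours control array 3 was the highest of the 6 arrays. XTH18, XTH19 and XTH17 are close relatives in sequence, and probe sequences were not used here, so signal shared between them was not tested. XTH17 (AT1G65310), on chromosome 1, had 4.84, 5.03 and 4.82 in heat arrays, against 4.93, 5.41 and 6.59 in control arrays (adjusted p = 0.247).

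XTH22 and XTH23 also have neighbours in the family. XTH25 (AT5G57550), next to XTH22, had 4.10, 3.94 and 3.99 in heat arrays, against 3.95, 3.88 and 4.42 in control arrays, and XTH14 (AT4G25820), next to XTH23, had 4.01, 3.76 and 4.30, against 3.71, 3.59 and 3.88. Neither was called (adjusted p = 0.795 and 0.247), and the means of both lay below the array medians. XTH15 (AT4G14130), known from shade responses, and XTH16 (AT3G23730) overlapped between groups, with changes of -0.42 and -0.33. Of the 26 XTH genes, 8 (XTH5, XTH10, XTH14, XTH20, XTH21, XTH25, XTH26 and XTH33) had a mean below 4.39, with changes from -0.22 to 0.30 and 0 called by limma, 0 at an unadjusted p under 0.05 and 0 without moderation of the variances.

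Control arrays 1 and 3 differed in many members, with 5 of 18 alpha-expansins at least 2-fold lower and all 3 EXLA genes and 8 XTH genes at least 2-fold higher in control array 3. The control arrays spanned at least 2-fold for 9 of 23 expansins and 10 of 26 XTH genes, where 4.76% of probe sets did. The heat arrays did so for 0 expansins and 2 XTH genes (XTH23 and XTH27), against 0.892%. Control array 3 was at least 2-fold below control array 1 for 6 expansins and 1 XTH gene (XTH6), against 0.787% of probe sets. The 6 were EXPA1, EXPA4, EXPA10, EXPA11, EXPA15 and EXPB3. Control array 3 was at least 2-fold above control array 1 for 8 XTH genes and 3 expansins, against 3.35% of probe sets, and the 3 were EXLA1, EXLA2 and EXLA3. The XTH genes were XTH4, XTH17, XTH18, XTH19, XTH22, XTH23, XTH24 and XTH30. The touch and wound genes CML12, WRKY40 and WRKY33 were at 8.61, 3.85 and 5.35 in heat array 1, against 7.78, 5.35 and 5.53 in control array 1 and 11.95, 11.62 and 10.74 in control array 3. HSFA2, HSP101 and HSP90.1 were at 7.30, 8.22 and 8.13 in control array 3, against 3.69, 4.82 and 4.80 in control array 1. The other heat shock gene listed, HSP70B, was at 4.55 against 4.62. Labelled age differs between these arrays as well. The part of the touch and wound response, of the heat shock response, or of age, in these differences was not tested.

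**Figure D3:**
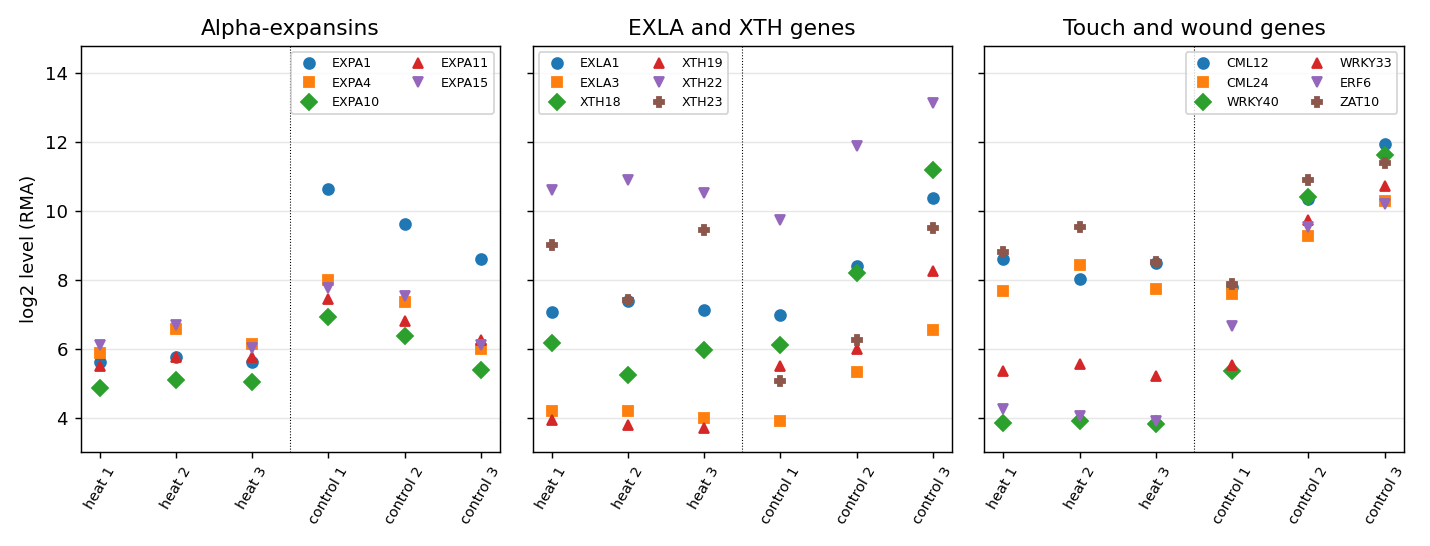
Log2 RMA level on each array (heat 1 to 3 left of the dotted line, control 1 to 3 right of it) for 5 alpha-expansins, 6 EXLA and XTH genes and 6 touch and wound response genes, chosen after their values were seen. EXPA1 lies at 10.64 in control array 1 and 8.60 in control array 3, while XTH22 lies at 9.74 and 13.15, on the same side as CML12 at 7.78 and 11.95.

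Set against single control arrays, with no test, the mean of the heat arrays was at least 2-fold lower for 8 expansins against control array 1 (5.31% of probe sets), 9 against control array 2 (5.05%) and 5 against control array 3 (6.23%). For XTH genes the counts were 5, 5 and 8 in the same order. EXPA1, EXPA6 and EXPA8 among expansins and XTH19, XTH27 and XTH28 among XTH genes lay at least 2-fold lower against each of the 3 control arrays. The share of all probe sets that did so against all 3 was not computed. For EXPA6 these differences were -1.65, -1.93 and -1.62, and for XTH28 they were -1.95, -2.14 and -1.50. For XTH18 they were -0.32, -2.40 and -5.39. The mean of the heat arrays was at least 2-fold higher for XTH23 against control arrays 1 and 2 and for no other XTH gene or expansin, against 3.05%, 3.2% and 3.26% of probe sets for control arrays 1, 2 and 3. EXLA2 lay just under this minimum against control arrays 1 and 2, with rounded differences of 0.99 and 1.0.

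Other genes that build, trim or acidify this wall were also examined. Of 14 genes for xyloglucan synthesis 6 fell and 0 rose, beside 11.5% and 7.82% of all probe sets, with a median change of -0.51. XXT1 (AT3G62720), a xylosyltransferase that adds side chains to the backbone, had 5.62, 5.10 and 5.30 in heat arrays, against 6.75, 7.95 and 9.42 in control arrays, and fell by 2.70 ± 0.61 (adjusted p = 0.0255). CSLC4 (AT3G28180), a synthase of the glucan backbone, had 5.63, 5.73 and 5.52 in heat arrays, against 6.89, 7.67 and 9.27 in control arrays, and fell by 2.32 ± 0.55 (adjusted p = 0.0298). Control array 3 was the highest for both, as it was for XTH18 and XTH19, and both calls were lost without any heat array or control array 2. The other members that fell were CSLC5 by 1.0, XLT2 by 0.82, CSLC6 by 0.63 and XXT2 by 0.50. Each of these 4 calls was lost without at least 1 single array, heat array 1 or 3 among them (adjusted p up to 0.13). With the age covariate none of the 6 was called (adjusted p from 0.111 for CSLC4 to 0.868 for CSLC6).

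All 3 glycosidases that trim xyloglucan side chains in the wall fell, beside 11.5% of all probe sets, and their arrays were close together within each group. The alpha-xylosidase XYL1 (AT1G68560) had 6.43, 6.64 and 6.47 in heat arrays, against 8.79, 9.13 and 8.87 in control arrays, and fell by 2.41 ± 0.12 (adjusted p = 3.51e-05). The beta-galactosidase BGAL10 (AT5G63810) fell by 1.33 ± 0.09 (adjusted p = 0.000178) and the fucosidase AXY8 (AT4G34260) by 0.95 ± 0.10 (adjusted p = 0.00127). The calls on all 3 held without any single array and with the age covariate (adjusted p = 0.0105, 0.0409 and 0.0379). With that covariate 227 of all probe sets were called lower.

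Of 8 plasma membrane proton pumps, whose acidification of the wall activates expansins, 4 fell and 0 rose, beside 11.5% and 7.82% of all probe sets, with a median change of -0.29. AHA3 (AT5G57350) had 6.71, 7.03 and 6.83 in heat arrays, against 8.35, 8.15 and 8.41 in control arrays, and fell by 1.45 ± 0.12 (adjusted p = 0.000367). AHA1 and AHA2, the pumps that act in most tissues, fell by 0.53 ± 0.08 (adjusted p = 0.00622) and 0.81 ± 0.11 (adjusted p = 0.00304), and AHA11 by 0.71 ± 0.16 (adjusted p = 0.0217), whose call was lost without heat array 1, heat array 3 or control array 2. With the age covariate AHA3 was called (adjusted p = 0.0441), and AHA1, AHA2 and AHA11 were not (adjusted p = 0.243, 0.171 and 0.38). The other 4 pumps differed by -0.05 to 0.12 and did not pass.

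**Figure D4:**
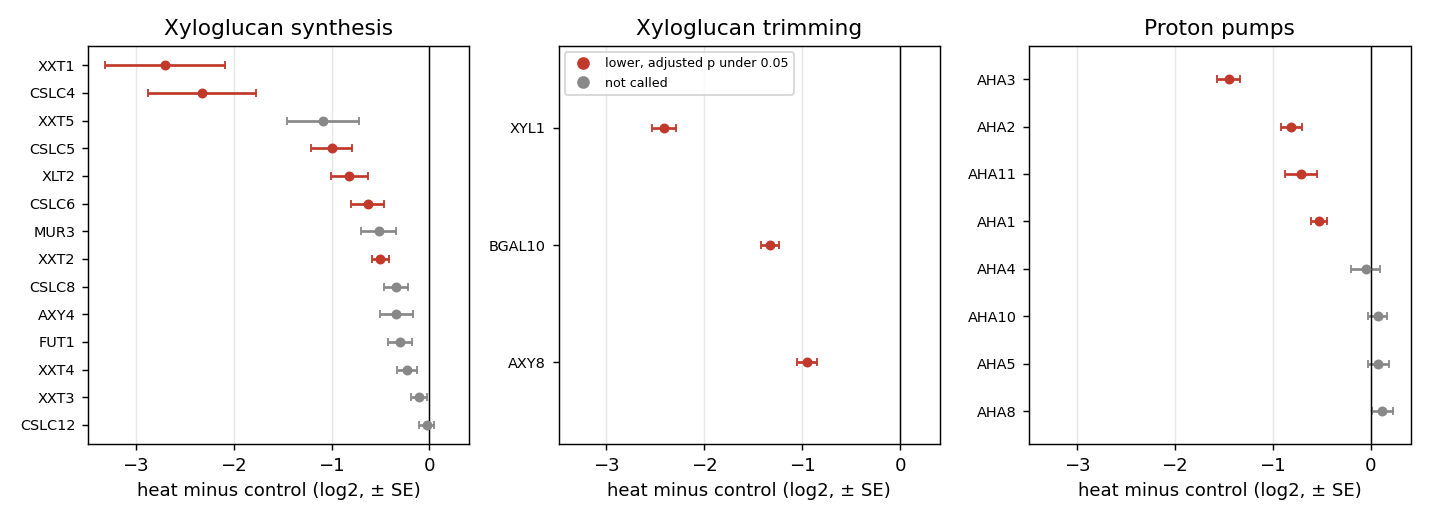
Change of 14 xyloglucan synthesis genes, 3 xyloglucan trimming genes and 8 plasma membrane proton pump genes, heat minus control on the log2 scale, with bars of 1 limma standard error (3 heat and 3 control arrays). Red genes fell at an adjusted p under 0.05: 6 of 14, 3 of 3 and 4 of 8, beside 11.5% of all probe sets, with XXT1 lowest at -2.70.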

How the data were processed

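Levels of 22810 probe sets on 6 arrays were read from the deposited value table, in log2 units. RMA is the method that the submitters' processing notes give for it; its version, and the annotation release, are not stated there. A second deposited table holds the authors' linear ratio, control divided by heat, for each replicate number. Its log2 lay within 0.0001 of the difference between the 2 arrays, and it was used for this check and for gene identifiers only.

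With 64 control probe sets left out, 22746 were fitted by limma 3.58.1 (R 4.3.3) with 1 factor, the group, and moderated variances (4 residual and 2.65 prior degrees of freedom). Tests were 2-sided and p-values were adjusted by Benjamini-Hochberg over all 22746. Entrez identifiers were matched to loci through a RefSeq gene table for TAIR10.1, which named 20540 of the 20661 probe sets with a single gene. No sequences were used. The fit was first tested on simulated data with independent noise in each probe set, so deviations shared across an array were not covered. An SD is over the 3 arrays of a group. With 3 arrays in each group, no exact permutation p can fall below 0.1. Python 3.11.15 with pandas 2.3.3 and numpy 2.4.6 made the tables, and matplotlib 3.10.9 drew the plots. RMA would hide a change in total mRNA per cell.

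The members, the other lists and the tests were chosen with earlier results of these data known. Every member could be named. By rule, levels on each array were given for members that passed with a 2-fold change, the 3 of each family with the highest mean, adjacent loci, XTH22 and EXPA1, and up to 4 members of each other list that passed with a 2-fold change. Array values of other members, and the other genes named, were chosen after they were seen, as was the comparison with single control arrays. Alternatives were quantile normalization, centring on the array median, scaling to 24 Bacillus control probe sets, a filter that drops the dimmest 25%, a variance trend, weights for arrays, no moderation, a replicate block, labelled age, a 2-fold minimum, and fits without 1 array. Averaging the probe sets of a gene was also planned and changes nothing, since each member has 1.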

Additional observations from a re-analysis of the deposited data

How the results depend on the processing

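Main counts were 2614 lower and 1778 higher probe sets, 6 lower and 0 higher expansins, and 6 lower and 0 higher XTH genes. Scaling to the Bacillus controls gave a median change of -0.49 for all probe sets (0.02 in the deposited values), -0.83 for expansins and -0.93 for XTH genes, and gave 9667 and 643 probe sets, 15 lower expansins and 19 lower and 1 higher XTH genes. That fit had 41.4 prior degrees of freedom. Median centring gave a median of 0.12 over all probe sets and gave 3054 higher probe sets and 1 higher expansin (EXPA2). Without moderation the counts were 1178 and 971 probe sets, 2 expansins and 1 XTH gene lower. With labelled age they were 227 and 359 probe sets, 1 expansin and 0 XTH genes lower. A 2-fold minimum gave 906 and 637 probe sets. Leaving out 1 array gave 1473 to 2807 lower and 1035 to 1774 higher probe sets, 3 to 9 lower and 0 to 1 higher expansins, 3 to 7 lower and 0 to 1 higher XTH genes, and medians of -0.52 to -0.18 and -0.56 to -0.20. The cause of these shifts was not tested. Quantile normalization, the trend, array weights and the dim filter kept each count of members within 1.5 times.

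Sign changes were found only among members not called, while the called members had been picked as lower on these same arrays. Every setting was listed for 37 of the 49 members; the other 12 had low levels. After scaling to the Bacillus controls EXPA2 was at -0.17, EXPA5 at -0.47, EXPA18 at -0.32, EXLA2 at -0.10, XTH9 at -0.27 and XTH14 at -0.21. With labelled age EXPA2 was at -0.09, EXPA4 at 0.37, EXPA15 at 0.44, EXPB3 at 0.31, EXLA2 at -0.79, XTH15 at 0.04, XTH23 at -2.01 and XTH14 at -0.05. Array weights put EXPA5 at -0.06 and median centring put XTH25 at 0.03. Leaving out 1 array moved EXPA5 between -0.11 (without heat array 2) and 0.15 and to -0.07 without control array 3, moved XTH24 between -0.66 and 0.31 (without control array 3; 0.19 without heat array 2), and put XTH25 at 0.10 without control array 3. Among those 12, Bacillus scaling put EXPA7 at -0.34, EXPA16 at -0.43, EXPA20 at -0.49, XTH26 at -0.41 and XTH33 at -0.39, age put EXPA16 at -0.13, EXPA20 at -0.57, EXPB1 at 0.22, XTH21 at 0.02 and XTH33 just below zero, and median centring put EXPB1 at 0.07, XTH5 at 0.09 and XTH21 at 0.06, each with its sign turned.

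Arrays with the same replicate number had r = 0.04, 0.19 and -0.08 between their deviations from the group means. For arrays with different numbers r ran from -0.15 to 0.16. So few values cannot decide whether the numbers pair the samples. With the replicate block 2266 probe sets were lower and 1529 higher, with 5 lower expansins and 6 lower XTH genes, and 11 of the 12 called members were called, all but EXPA11 (adjusted p = 0.0622).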
